A study of Homo sapiens with 8 samples.

Results

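The S100 proteins are small calcium-binding proteins with a pair of EF-hand motifs that mostly work as dimers. In the calcium-bound state most of them open a hydrophobic face that binds target proteins, among them annexins and non-muscle myosin. Several are used as markers or have been studied as drivers of spread in melanoma: S100B is a routine tissue and serum marker, and S100A4 is known for promoting cell motility. Described here are the 8 S100 genes S100A1, S100A4, S100A6, S100A10, S100A11, S100A13, S100A16 and S100B, picked by symbol from a table of translational efficiency (TE) with 4616 genes, and all 8 were found in it. The other 12 genes of the S100 family list, among them S100A2, S100A8 and S100A9, had no row in it.

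The cells were WM902B, an established line from a human primary melanoma with the BRAFV600E mutation, at passage 18. They carried either shTINCR, a hairpin against the long non-coding RNA TINCR, or shSCR, a scrambled control hairpin, and all were given cycloheximide at 100 µg/ml for 5 min to hold ribosomes on the mRNA. The 8 libraries were 4 of ribosome footprints and 4 of RNA, which the labels call total RNA in one place and polyA RNA in another, with 2 biological replicates per hairpin and kind. All libraries came from 1 line, and the table held 0 rows for TINCR itself, so the loss of TINCR was not checked here. The labels name no other hairpin against TINCR, so effects of its loss cannot be told apart from other effects of this hairpin. TINCR is known for its role in epidermal differentiation, and most human S100 genes lie within or beside the epidermal differentiation complex, a gene cluster on chromosome 1. Of 10 melanoma markers 9 were measured, among them S100B, which is also 1 of the 8 genes described here. Of the other lists, 0 of 17 keratinocyte markers, 1 of 10 fibroblast markers and 1 of 8 immune markers were measured. So were 0 of 29 further genes of the epidermal differentiation complex. Whether a gene has a row depends on a low-value filter that is not known, so these counts do not establish the identity of the cells.

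TE is the number of ribosome footprints of a gene relative to its mRNA, and the authors gave it as a log2 value per condition. The median gene stood near 0 in both conditions (0.0019 in shTINCR cells and 0.0078 in shSCR cells). How the values were scaled is not stated in the sources used here. The table gave no value of a replicate, so each condition has 1 value per gene with no error, and library depth is unknown. Each log2 change of TE came with a p-value and with an adjusted p over all 4616 genes, and a gene was called where the adjusted p was below 0.05. The standard errors quoted below are those which a change and its final p-value imply for a normal statistic. A changed TE can come from the footprints, from the mRNA or from both, which the table cannot tell apart.

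The first bases of an mRNA matter in translation, since mRNAs that begin with an unbroken run of pyrimidines are known to respond together to mTOR signalling. The sequences around the annotated starts of 4 of the S100 genes are shown. S100A10 and S100A16 were chosen as the members called at the adjusted p below 0.05. S100A11 was chosen as the member of highest TE, and S100A4 as the member with the longest pyrimidine run. Each line gives 30 bases of GRCh38.p14 from RefSeq, 10 before the annotated transcription start and 20 from it, 5′ to 3′ on the strand of the gene. Capitals mark a C followed by at least 4 bases that are each C or T, searched on that strand only.
S100A10, chr1:151993840-151993869, minus strand: gCCTCCCTCTacccacccgccgcacgtact
S100A16, chr1:153613118-153613147, minus strand: gggccaagtcaagaaggagctcagccacta
S100A16, second start, chr1:153609336-153609365, minus strand: agggcagggcagccggcatgggagtaggaa
S100A11, chr1:152036985-152037014, minus strand: ggcgtgggttgaggagaggctccagacccg
S100A4, chr1:153545787-153545816, minus strand: ggccgtccccattCTTCCCCTCTCTacaac

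RefSeq sequences matched 7 of the 8 members, with 10 starts. Such a run lay somewhere in the window at 5 of these 10 starts. The share was 38.4% of all 35116 RefSeq starts and 38.1% of the 5409 starts of genes in the table. Those 5409 starts belonged to 3735 of the 4616 genes, and the other genes had no matched start. The run of S100A10, 9 bases long, ended just before the annotated start, that of S100A4, 12 bases long, began shortly after it, and neither start of S100A16 nor that of S100A11 had one. At 0 of the 10 starts did the run begin at the annotated first base, against 4.07% of all starts and 6.19% of those of genes in the table. These are matches of letters near annotated starts, and where transcription began in these cells was not measured.

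TE of the S100 genes was high as a rule but spread widely. These genes encode small proteins, and whether their TE differs from that of other genes for small proteins was not tested. In shTINCR cells 6 of the 8 lay among the 25% of genes with the highest TE and 4 among the top 10%, and in shSCR cells these counts were also 6 and 4. S100A11 had the highest log2 TE of all 4616 genes in both conditions in the authors' deposited table, with 4.48 in shTINCR cells and 4.16 in shSCR cells. On a linear scale this is a TE of 22.2 in shTINCR cells and 17.9 in shSCR cells, where the median gene is near 1. The gene next in order in both conditions, named after its value was seen, was MIA, which encodes a small protein that melanoma cells secrete, with a log2 TE of 4.42 in shTINCR cells and 4.07 in shSCR cells in the authors' deposited table. RefSeq names 10 pseudogenes of S100A11 and 0 of the other members. The sources used here do not say how reads shared between a gene and its pseudogenes were counted, so the level of S100A11 is uncertain, and the part of shared reads in it was not tested.

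**Figure D1:**
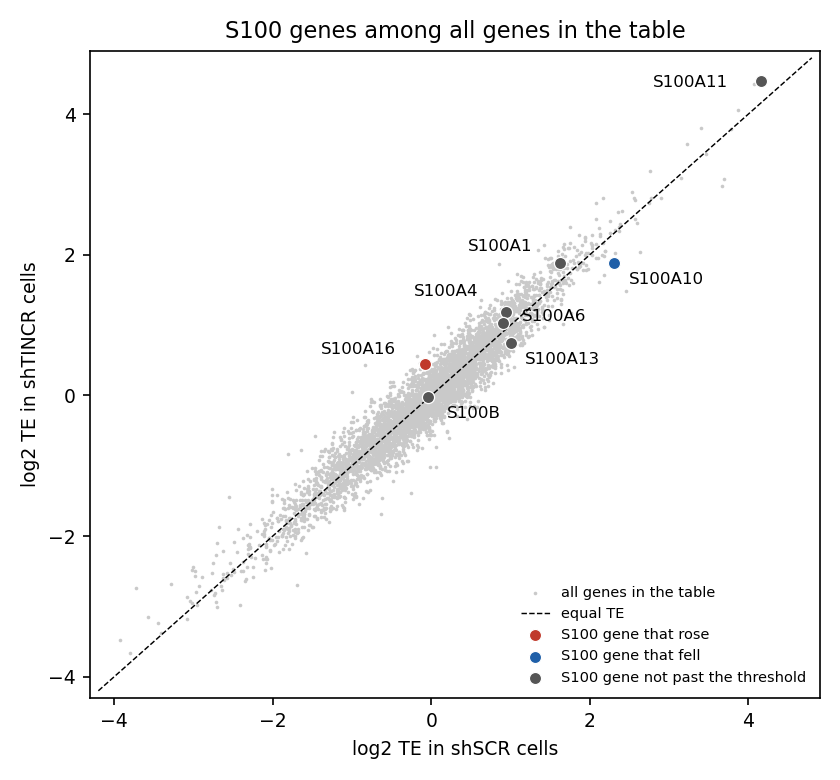
Log2 TE in shTINCR cells (vertical axis) against log2 TE in shSCR cells (horizontal axis) for all 4616 genes of the authors' deposited table (grey), with the 8 S100 genes as large points coloured by call and a dashed line of equal TE. S100A11 lies at the upper end of the whole cloud, at 4.48 in shTINCR cells and 4.16 in shSCR cells, S100A16 lies above the line and S100A10 below it.

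The other members followed at a distance. S100A10 had a log2 TE of 1.89 in shTINCR cells and 2.31 in shSCR cells in the authors' deposited table, which placed it above 98.1% of the other genes in shTINCR cells and above 99.4% in shSCR cells. In the authors' deposited table the value for S100A1 was 1.88 in shTINCR cells and 1.62 in shSCR cells. Both were thus among the genes of highest TE in the table, and S100A10 ranked above S100A1 in each condition. The level of S100A1 is uncertain, since it overlaps S100A13, as described below. S100A4, S100A6 and S100A13 formed a middle group, with log2 TE of 1.18, 1.03 and 0.74 in shTINCR cells and of 0.94, 0.91 and 1.001 in shSCR cells in the authors' deposited table. At the low end in the authors' deposited table, S100A16 had 0.45 in shTINCR cells and -0.08 in shSCR cells, and S100B had -0.03 in shTINCR cells and -0.05 in shSCR cells. S100B, though the clinical marker among the 8, thus had a TE close to that of the median gene. From the lowest to the highest member TE spanned 22.6-fold in shTINCR cells and 18.9-fold in shSCR cells. The order of the 3 highest members was the same in both conditions. Among the 5 others the order changed: S100A13 held place 6 in shTINCR cells and place 4 in shSCR cells, and S100A16 stood above S100B in shTINCR cells and below it in shSCR cells. With no error per level, no 2 neighbours in this order can be said to differ. TE is a ratio within a gene, but the sources used here do not say how much of each mRNA was counted, so differences between genes can also reflect the share of the mRNA that is coding.

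**Figure D2:**
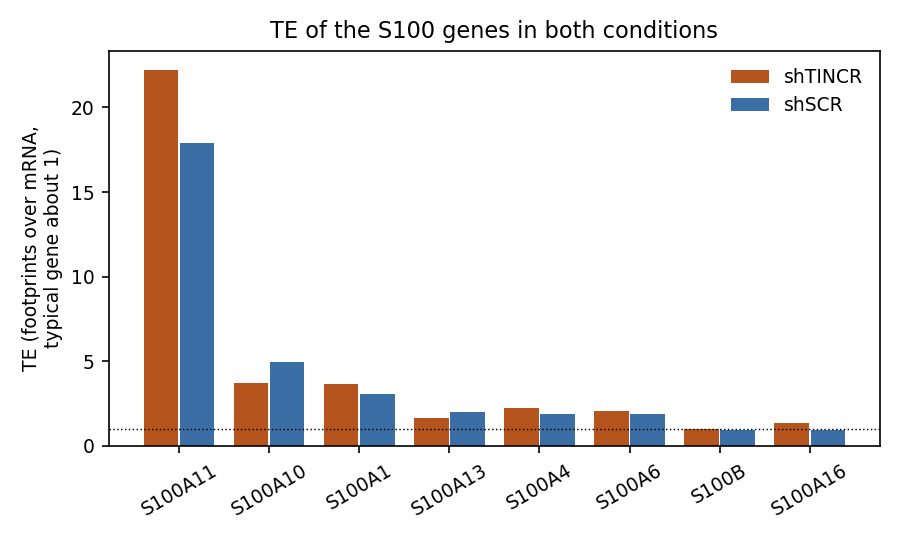
TE on a linear scale in shTINCR cells (left bar of each pair) and shSCR cells (right bar) for the 8 S100 genes, ordered by TE in shSCR cells, with a dotted line at 1. Bars are the authors' single value per condition and have no error; S100A11 reaches 22.2 in shTINCR cells and 17.9 in shSCR cells, while the next highest bar, that of S100A10 in shSCR cells, stands at 4.94.

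The comparison of hairpins asked which of these mRNAs changed in TE when TINCR was targeted. Of the 8 S100 genes 1 rose, S100A16, and 1 fell, S100A10, and 6 did not pass the threshold. Over all genes, 16.4% were called, 8.23% upwards and 8.17% downwards, and with only 8 members the 2 calls do not set the family apart from that share. The log2 changes ran from -0.42 to 0.53, with a median of 0.18, against 0.02 over all genes. The change was positive in 6 of the 8 members, against 52.5% of all genes. These members do not share a direction, and no test was made over them as a group.

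S100A10, S100A11 and S100A6, which are known to bind annexins, had changes of both signs. S100A10, also called p11, forms a complex with annexin A2 at the inner face of the plasma membrane and has lost the ability to bind calcium. Its TE was 3.70 in shTINCR cells and 4.94 in shSCR cells, and it fell to 0.748-fold of its shSCR value (the authors' deposited table, log2 change -0.42, adjusted p = 0.0108). The implied standard error of this change was 0.126. A change at least this large was found in 8.80% of all genes. S100A11, which binds annexin A1 and annexin A2, had a log2 change of 0.31 with an implied standard error of 0.162, and did not pass (the authors' deposited table, 1.24-fold, adjusted p = 0.179). S100A6, or calcyclin, which binds annexin A11, had a TE of 2.04 in shTINCR cells and 1.88 in shSCR cells, with a log2 change of 0.12 and an implied standard error of 0.0957 (the authors' deposited table, adjusted p = 0.425).

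S100A16, a widely expressed member of the family, had the largest change of the 8. Its TE was 1.36 in shTINCR cells and 0.946 in shSCR cells, a rise of 1.44-fold (the authors' deposited table, log2 change 0.53, adjusted p = 0.0125). Its implied standard error, 0.161, was close to that of S100A11. A change of that size or more was found in 3.40% of all genes. It went with a shift in rank, with 70.2% of the other genes below S100A16 in shTINCR cells and 45.6% in shSCR cells. The calls of S100A10 and S100A16 were both lost with stricter adjustments, with Benjamini-Yekutieli adjusted p of 0.0974 for S100A10 and 0.113 for S100A16 and Bonferroni adjusted p of 1 for each, and at an adjusted p below 0.01.

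The remaining members did not pass. S100A4, which binds non-muscle myosin IIA and is studied for its part in metastasis, had a TE of 2.26 in shTINCR cells and 1.91 in shSCR cells (the authors' deposited table, log2 change 0.24, adjusted p = 0.174). S100A13, which takes part in the export of the growth factor FGF1 from cells, had a TE of 1.67 in shTINCR cells and 2.001 in shSCR cells. Its log2 change was -0.26 (the authors' deposited table, adjusted p = 0.122), the only negative one besides that of S100A10. S100A1, known for its control of calcium release and uptake in heart muscle, had a TE of 3.67 in shTINCR cells and 3.08 in shSCR cells (the authors' deposited table, log2 change 0.25, adjusted p = 0.135). S100B, abundant in glial and melanocytic cells, had a TE of 0.982 in shTINCR cells and 0.969 in shSCR cells, with a log2 change of 0.02 and the smallest implied standard error of the 8, 0.0826 (the authors' deposited table, adjusted p = 0.911).

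**Figure D3:**
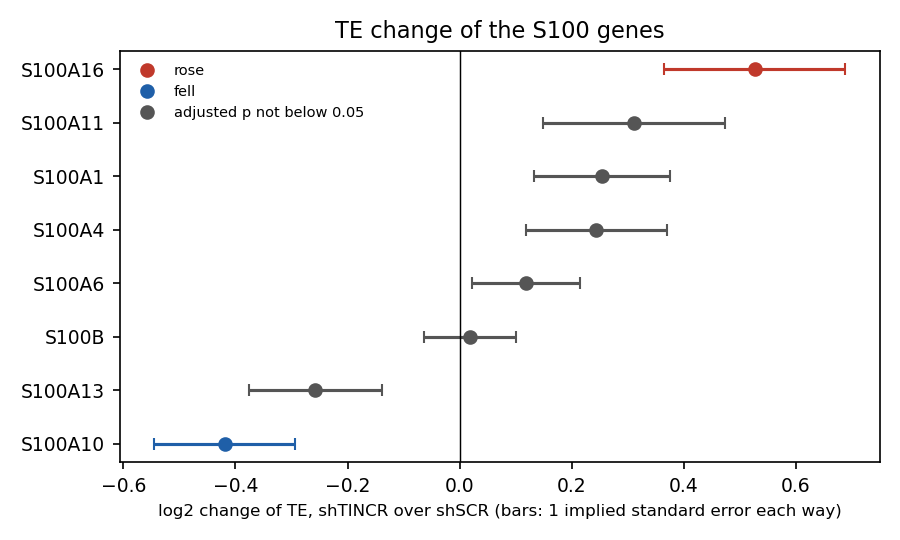
Log2 change of TE, shTINCR over shSCR, for the 8 S100 genes, with bars of 1 implied standard error on each side, ordered by the change. S100A16 (0.53) is the only member that rose and S100A10 (-0.42) the only one that fell at the adjusted p below 0.05; the bar of S100B spans 0.

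S100A1 and S100A13 overlap in the RefSeq annotation, on opposite strands, and S100A13 has 6 curated coding transcripts. The sources used here do not say whether reads were counted by strand. Without that, reads of the overlap cannot be told apart. In the authors' deposited table the TE levels of S100A1 and S100A13 are therefore uncertain. So are their log2 changes, 0.25 for S100A1 and -0.26 for S100A13. S100A13 further overlaps CHTOP and S100A4 overlaps S100A5, neither of which was analysed here, and S100A4 and S100A6 each overlap an uncharacterised locus. S100A10, S100A11, S100A16 and S100B overlap no other annotated gene. Of the 8 members 7 lie on chromosome 1 and S100B alone on chromosome 21.

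The call of S100A11 depended on which of a pair of estimates in the table was used. For every gene the authors gave 2 versions of the change and of its p-value, and in all 4616 rows the higher of the 2 p-values had become the final one. For all 8 S100 genes the final p was that of the first version. The size of the change hardly differed, by at most 0.0017 on the log2 scale among the members. As a ratio, the p-values differed most for S100A11, with 0.0547 in the first version and 5.68e-05 in the second in the authors' deposited table. Adjusted over all genes, the second version gave S100A11 0.0011, S100A10 0.000418 and S100A16 0.00699, so that 3 of the 8 members passed, against 20.3% of all genes. S100A13 and S100A1 stayed just above the threshold there, at adjusted p of 0.0521 and 0.0657. The implied standard error of S100A11 was 0.0775 in the second version and 0.162 in the final one. At an unadjusted final p below 0.05, 4 of the 8 members passed (S100A10, S100A16, S100A13 and S100A1), against 29.5% of all genes.

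**Figure D4:**
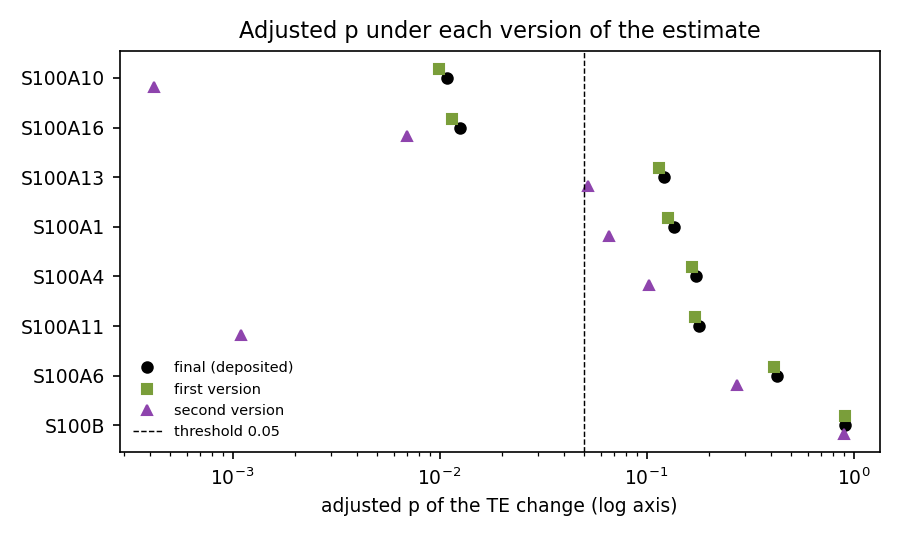
Adjusted p of the TE change on a log axis for the 8 S100 genes: final as deposited (circles), first version (squares) and second version (triangles), with a dashed line at 0.05. S100A10 and S100A16 lie left of the line in all 3; S100A11 lies left of it only in the second version, at 0.0011.

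The annexins, the calcium-dependent membrane-binding proteins to which several S100 dimers attach, had 7 measured members of a list of 13, of which 1 rose and 1 fell (median log2 change -0.06). ANXA1, an anti-inflammatory annexin bound by S100A11, had a log2 TE of 0.72 in shTINCR cells and 1.14 in shSCR cells and fell to 0.746-fold (the authors' deposited table, adjusted p = 4.85e-05). ANXA11, the partner of S100A6, had a log2 TE of 0.78 in shTINCR cells and 0.41 in shSCR cells and rose 1.29-fold (the authors' deposited table, adjusted p = 0.0433). ANXA2, the partner of S100A10, had a log2 change of -0.07 (the authors' deposited table, adjusted p = 0.574). S100A10 thus passed where ANXA2 did not, but the difference between their changes was not tested. In the authors' deposited table the log2 change was -0.13 for ANXA5, 0.10 for ANXA4, -0.06 for ANXA7 and 0.0022 for ANXA6, and none of these 4 passed.

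Among proteins known to bind S100 proteins, other than annexins, 24 of a list of 34 were measured, 1 rose and 0 fell, with a median log2 change of 0.01. Of 26 other genes that neighbour the S100 genes on chromosome 1, 9 were measured, 0 rose and 1 fell, with a median of -0.006. It was RPS27, a ribosomal protein, with a log2 change of -0.48 (the authors' deposited table, adjusted p = 2.21e-06). The shares of called genes in these lists, 2 of 7, 1 of 24 and 1 of 9, stand beside 16.4% over all genes, and none of the lists was tested against it.

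**Figure D5:**
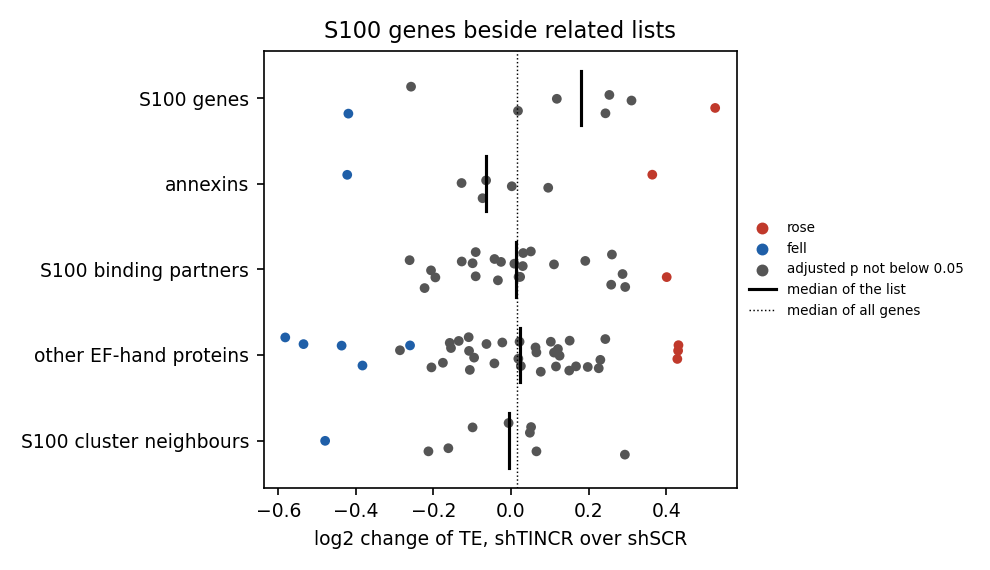
Log2 change of TE, shTINCR over shSCR, for each measured gene of the S100 family and 4 related lists, 1 point per gene coloured by call, with a bar at the median of each list and a dotted line at the median of all genes. Points are spread vertically only to separate them. The S100 median lies at 0.18 and the medians of the annexins, binding partners, other EF-hand proteins and neighbours lie between -0.06 and 0.02.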

How the data were processed

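The authors' deposited table compared shTINCR with shSCR cells over 4616 genes. Its log2 TE and log2 change values, 2 versions and a final choice, are named per the file headers, and so are its p-value columns. The tools TopHat2 2.0.8 and Bowtie2 2.1.0, and further CASAVA 1.9, HTSeq 0.5.3p9 with DESeq 1.10.1, SAMtools 0.1.18 and genome build hg19, are named per the submitters' processing notes, which give no roles. The sources used here do not give the tool behind the TE columns, the counted region, the strand or the low-value filter. The table has 0 columns of single libraries, so count tests were not run.

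The deposited adjusted p matched Benjamini-Hochberg over all rows within 1.95e-15. Each version was adjusted the same way (Python 3.11.15, pandas 2.3.3, numpy 2.4.6, scipy 1.17.1, figures matplotlib 3.10.9), as tested on simulated data. Folds are 2 to the power of the log2 change. The members and lists were chosen with earlier results of these data known. Named are all S100 genes, all annexins, and from each other list up to 8 members past the threshold, some of which are not reported here. RefSeq names matched all 8 members and its coordinates (GRCh38.p14, not the hg19 of the notes) served only for the printed windows and for overlap. Protein lengths were not used here, so the planned comparison with short proteins was not made.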

Additional observations from a re-analysis of the deposited data

How the results depend on the processing

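No paired analysis was possible because the table holds no value of a replicate, and for the same reason leaving out replicates and the count tests were not run; the comparison by protein length had no protein table. For the 8 members 9 alternatives were tried, and none turned the direction of a change. None of these settings could have done so. The adjustments, thresholds and gene filters kept the final change as it was. The 2 versions differed by at most 0.0017 among the members. Centring shifted each change by 0.016, less than the smallest change of a member, 0.018 for S100B. The unturned directions are therefore no sign of robustness. S100A11 passed in the second version (0.31). S100A10 (-0.42) and S100A16 (0.53) no longer passed with Bonferroni, with Benjamini-Yekutieli or at a threshold of 0.01, which are stricter by construction, and their adjusted p ranged from 0.000418 to 1 and from 0.00699 to 1. The count of members past the threshold was then 0 under each, and at an unadjusted p, chosen after seeing the data, it was 4 in the final version, against 29.5% of all genes, and 6 in the second, against 32.5%. Over all genes the shares called were 17.9% in the first version, 20.3% in the second and 22% at a threshold of 0.1. The share was 17% without the 10% of genes of largest implied standard error. Bonferroni, Benjamini-Yekutieli and the threshold of 0.01 left 120, 270 and 361 calls over all genes, or 2.6%, 5.85% and 7.82%. The annexins had 1 call under each of the 3. Beside these shares, the 24 binding partners had 3 calls in the first and 5 in the second version, 6 at a threshold of 0.1, 2 without the least precise genes and 0 under each stricter rule. Other EF-hand proteins had 1, 3 and 5 calls under the stricter rules, and the 9 neighbours 2 in the first version and at 0.1. ANXA6, not called in any setting, moved to -0.014 when changes were centred on the median. Depth is unknown, so its limit on these values cannot be stated.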

Other observations

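Other EF-hand proteins, which share the calcium-binding motif of the S100 family, had 39 measured members of a list of 61, of which 3 rose and 5 fell, beside 16.4% of all genes called in either direction. In the authors' deposited table the myosin regulatory light chain MYL12B fell to 0.668-fold (adjusted p = 1.67e-06) and the actin-bundling PLS3 to 0.835-fold (adjusted p = 0.0417). At the mitochondrion, in the authors' deposited table, the glycerol phosphate dehydrogenase GPD2 fell to 0.690-fold and MICU2, a regulator of the calcium uniporter, to 0.739-fold. In the authors' deposited table SDF4, a calcium-binding protein of the Golgi lumen, rose 1.35-fold (adjusted p = 0.000844), as did EFHD2 (1.35-fold, adjusted p = 0.00831), and PEF1, a penta-EF-hand protein, rose 1.35-fold (adjusted p = 0.0433). The median log2 change of the list was 0.02, equal to that of all genes at this rounding, and no test was made over it.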
